A study of Rattus with 6 samples.

Results

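The cytosolic ribosomal protein genes were taken as the protein-coding genes of the deposited count table whose symbol has the form Rpl, Rps or Rplp with a number and up to 3 further characters, the S6 kinase genes (Rps6k) excepted. The pattern matched 99 of 21378 genes. The RNA came from bought rat cardiac fibroblasts, which lay down the extracellular matrix of the heart, and was sequenced after poly(A) selection in 2 groups of 3 libraries. Values of a group are given in the order of replicates 1, 2 and 3. The siNONO group was transfected with an siRNA against Nono, the gene of a paraspeckle protein that binds RNA and DNA, using Lipofectamine 2000. The siCtrl group carries that name in its titles and another label speaks of an empty vector, and which of them was used is not settled here. Cells for RT-qPCR and western blotting were collected at 48 h, per the labels, which give no time for sequencing and no strain, age or separate cultures. The p-values therefore rest on how far these samples differ within a group, and that spread may be technical.

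Each cytosolic ribosome is built from a small and a large subunit, in which ribosomal RNA is bound by a set of proteins that are each needed in a single copy, except for the acidic stalk proteins. The genes for these proteins are scattered over the genome and are expressed in all cells. Their mRNAs are short, among the most abundant of a cell, and start with a terminal oligopyrimidine (TOP) tract, through which mTORC1 and LARP1 set their translation and stability together. Mammalian genomes also carry many processed copies of them, most of which are pseudogenes.

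The 99 genes are of several kinds. The RefSeq table of assembly GRCr8, matched by current or older symbol on the same chromosome, gives 74 of them as genes of structural proteins of the ribosome: 41 of the large subunit, 30 of the small subunit and the 3 stalk genes Rplp0, Rplp1 and Rplp2. Among the 74 are 3 that the count table lists under older names, Rpl35al1 (now Rpl35a), Rps19l2 (now Rps19) and Rps9l1 (now Rps9). Another 24 are paralogs or near-copies such as Rpl22l1, Rpl36al and Rps18l1, and 1, Rps19bp1, encodes a protein that binds S19 and is not a ribosomal protein. The gene listed as Rpl37 on chromosome 10 belongs with the copies, since RefSeq places Rpl37 on chromosome 2. Of the 99 genes, 89 passed the filter on low counts and were tested, all 74 structural genes among them. The 10 that did not pass were Rps19bp1 and 9 copies. Near-identical copies share reads, and how the authors counted reads that map to several places is not given in the sources used here, so the values of the copies are uncertain, as are those of structural genes with many copies.

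The libraries held 27792357 to 33365588 counts. Levels are given as CPM, counts scaled to a library size that includes the TMM factor. Nono was at 236, 233 and 246 CPM in siCtrl, against 69.8, 76.1 and 73.6 CPM in siNONO, and fell by 1.70 ± 0.05 on the log2 scale (SE; adjusted p = 4.57e-11 by edgeR). The 10 fibroblast markers, Col1a1 and Pdgfra among them, were all expressed, with a summed level of 32455 to 35292 CPM in siCtrl and 31617 to 32588 CPM in siNONO. Most of that sum is collagen: 4 of the 10 were lowered, Lum (-0.91), Postn (-0.64), Dcn (-0.32) and Tcf21 (-0.22), and 1, Ddr2, was raised (0.13). Of the cardiomyocyte markers, Myh6, Actn2 and Ryr2 had 0 to 4 counts per library. Tnnt2, a troponin gene, was at 152 ± 8.37 CPM in siCtrl and 111 ± 4.55 CPM in siNONO (SD, n = 3 each) and was lowered (-0.45). The 7 matched leukocyte and macrophage markers summed to 347 to 378 CPM in siCtrl and 323 to 338 CPM in siNONO, with Adgre1 (-0.50), Csf1r (-0.30) and Cd14 (-0.22) lowered. The 6 smooth muscle and pericyte markers summed to 24.2 to 25.5 and 19.5 to 20.8 CPM, with Myh11 (-0.88), Cnn1 (-0.88) and Cspg4 (-0.58) lowered and Des raised (0.36), and the 5 endothelial ones to 16.0 to 17.6 and 17.9 to 19.6 CPM, with Tek raised (0.24). Among all 14412 tested genes 15.9% were lowered and 16.2% raised. The part of these marker differences in the results was not tested. In bulk samples fewer cells of a type and less RNA per cell cannot be told apart.

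Ribosomal protein mRNAs took a smaller part of the libraries after Nono knockdown. The 99 genes held 10.2%, 9.20% and 9.45% of all counts in siCtrl, against 8.26%, 8.60% and 8.03% in siNONO. The siCtrl libraries lay above all siNONO libraries, and siCtrl replicate 1 was the highest. The means were 9.63% ± 0.544 and 8.30% ± 0.287 (SD, n = 3 each; two-sided exact permutation test, p = 0.1, which is the lower limit for 3 against 3). Without siCtrl replicate 1 the difference narrowed from -1.33 to -1.03 percentage points. Large-subunit genes went from 5.10% ± 0.269 to 4.43% ± 0.160, small-subunit genes from 3.84% ± 0.231 to 3.27% ± 0.116 and the stalk genes from 0.613% ± 0.0393 to 0.528% ± 0.0103 (exact permutation p = 0.1 for each). The ratio of large- to small-subunit counts was 1.32, 1.34 and 1.33 in siCtrl and 1.35 in each siNONO library, a small difference with no overlap (exact permutation p = 0.1).

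**Figure D1:**
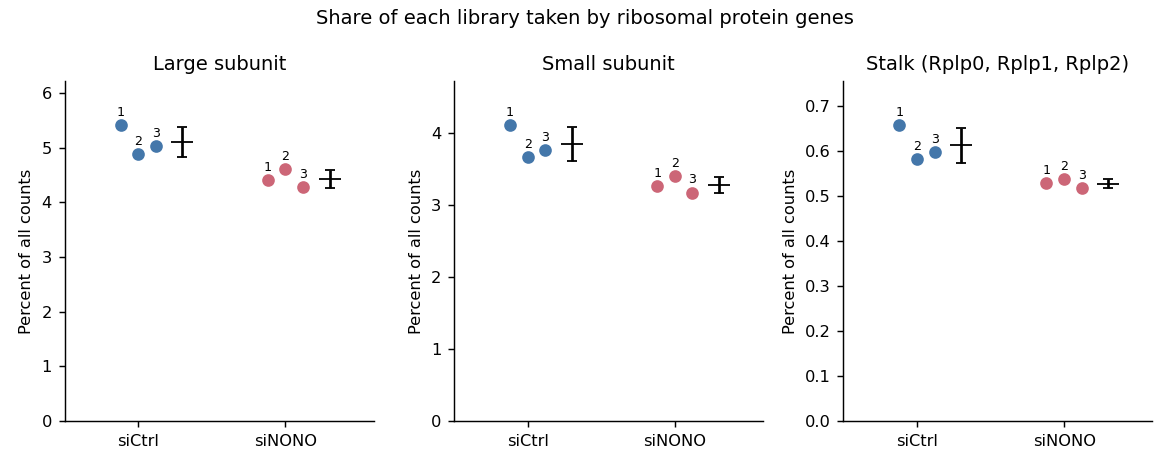
Percent of all counts (y axis, from 0) on large-subunit, small-subunit and stalk genes in each library (points, numbered by replicate), with the mean and SD of 3 libraries beside them. In all 3 panels the siNONO points lie below the siCtrl points, and siCtrl replicate 1 is the highest.

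Gene by gene the fall was small and nearly uniform. Of the 89 tested genes, 77 were lowered and 0 raised at an adjusted p under 0.05 by edgeR's quasi-likelihood test, where 15.9% of all 14412 tested genes were lowered and 16.2% raised (32.1% in either direction). At an unadjusted p under 0.05 the raised count was also 0, and it was 0 by DESeq2's Wald test. Among the structural genes 71 of 74 were lowered, with a median log2 fold change of -0.27 and quartiles of -0.30 and -0.25, against 0.00, -0.15 and 0.16 over all tested genes. That median corresponds to 83.0% of the control level. Small-subunit genes were lowered in 30 of 30 (median -0.27), large-subunit genes in 38 of 41 (median -0.26) and stalk genes in 3 of 3 (median -0.27). The siNONO values lay wholly below the siCtrl values for 69 of the 74, where this held for 22.1% of all tested genes. Rpl6, Rpl11, Rpl13 and Rps23 were among those for which it did not hold. Of the 89, only Rpl6 lay wholly above, as 22.9% of all tested genes did. Leaving out each library in turn, 62 of the 71 kept their call in all 6 fits.

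**Figure D2:**
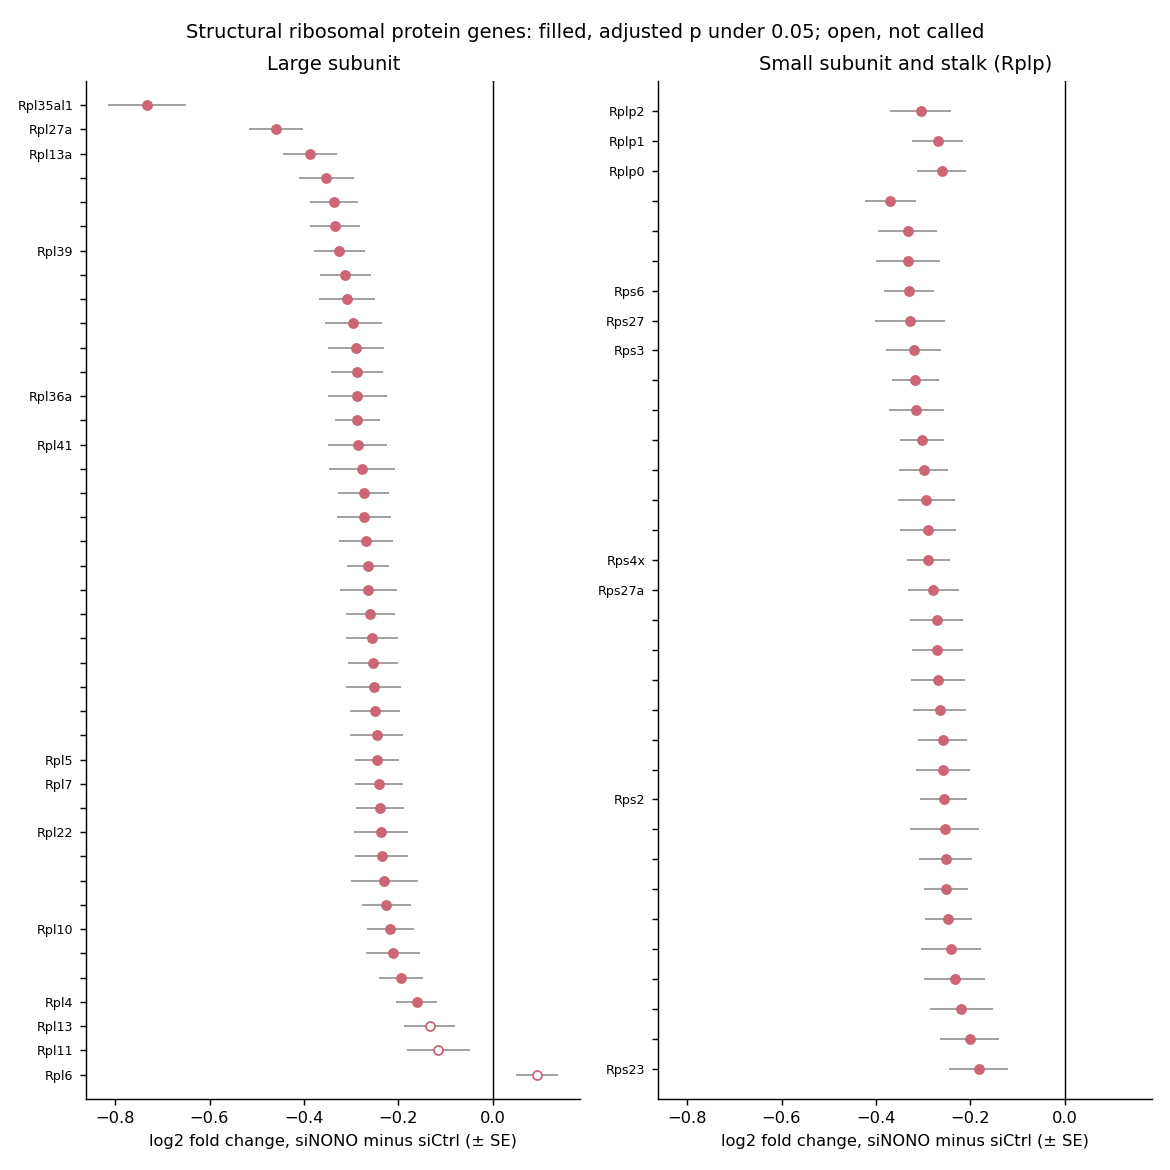
Log2 fold change of each of the 74 structural genes (x axis, siNONO minus siCtrl, with SE bars), ordered within large-subunit, small-subunit and stalk genes. Filled points passed the test, and the genes named in the text are labelled. Most points crowd between -0.35 and -0.20, with Rpl35al1 and Rpl27a to the left and Rpl4, Rpl13, Rpl11 and Rpl6 to the right.

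Messages of these genes are short, with a median gene-model length of 736 bases among the 89 against 3598 bases among all tested genes. Over the 14151 tested genes with a length, the log2 fold change correlated weakly with length (Spearman rho = 0.11, a description across genes, which are not independent replicates); over the 74 structural genes rho was -0.01. With a correction for gene length the median of the 89 genes was -0.18 in place of -0.27, with 69 lowered and 1, Rpl6, raised. In that fit 2541 of all 14412 tested genes were lowered and 2516 raised.

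The members also moved together between replicates. All 74 structural genes had their highest siCtrl value in replicate 1 and all 74 their highest siNONO value in replicate 2, and 73 of 74 had their lowest siCtrl value in replicate 2. The spread of log2 CPM within groups had a median SD of 0.0926, which shrank to 0.0253 when each gene was taken as a share of the structural total. Their calls are therefore not independent of each other. Without siCtrl replicate 1, 72 of the 89 were lowered and 1 raised (median -0.21).

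**Figure D3:**
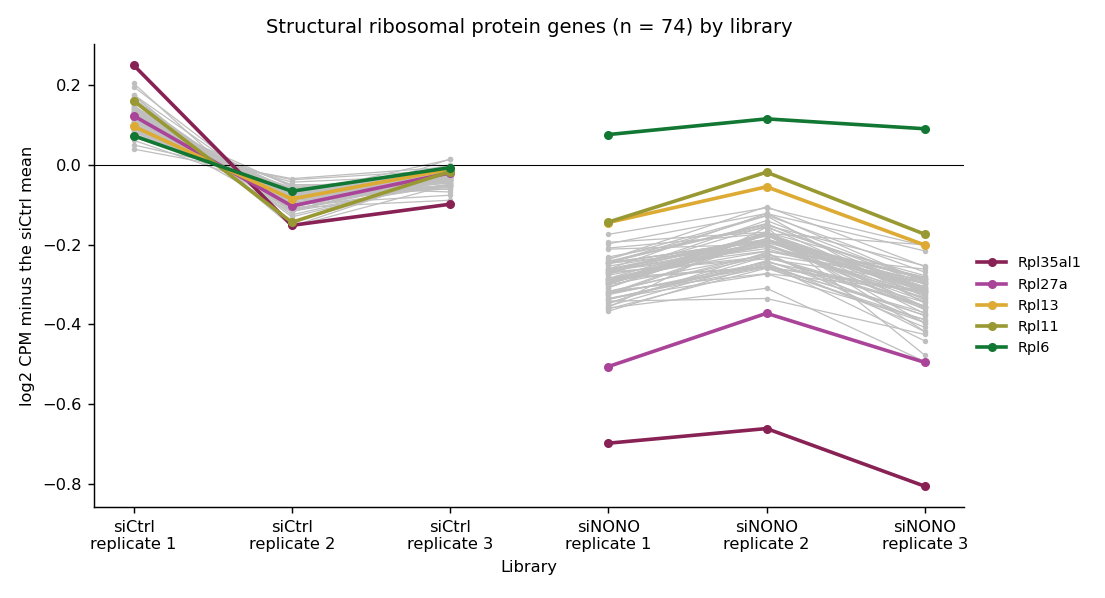
Log2 CPM of the 74 structural genes minus each gene's siCtrl mean (y axis) in the 6 libraries (x axis); a line joins the values of 1 gene within a group, and 5 genes named in the text are coloured. The grey bundle moves as a whole between libraries. Rpl6 stays above 0 in siNONO, and Rpl35al1 and Rpl27a run below the bundle.

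The levels themselves differed between genes. Compared per length, the siCtrl means of the structural genes ran from 358 ± 50.9 FPKM for Rpl35al1 to 4561 ± 353 FPKM for Rpl41, with the middle of the list at 1618 FPKM and the quartiles at 1097 and 2077 FPKM. Rpl41, which encodes a very short basic peptide of the large subunit, was at 2512, 2104 and 2226 CPM in siCtrl, against 1851, 1984 and 1775 CPM in siNONO. Its siNONO values were all below its siCtrl values, and it changed by -0.29 ± 0.06 on the log2 scale (adjusted p = 0.00275 by edgeR). Next in FPKM came Rplp0 (3285 ± 188 FPKM), the stalk protein that anchors the others to the large subunit, and Rps6 (3086 ± 128 FPKM), the small-subunit protein phosphorylated by the S6 kinases. Rps6 was at 2939, 2637 and 2735 CPM in siCtrl, against 2191, 2333 and 2086 CPM in siNONO and was lowered, again without overlap, with a log2 fold change of -0.33 ± 0.05 (adjusted p = 0.000286).

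The stalk proteins recruit the translation factors that hydrolyse GTP on the ribosome. Rplp0 was at 4348, 3797 and 3929 CPM in siCtrl, against 3343, 3459 and 3274 CPM in siNONO, Rplp1 at 1601, 1361 and 1429 CPM in siCtrl, against 1212, 1240 and 1190 CPM in siNONO, and Rplp2 at 855, 706 and 718 CPM in siCtrl, against 608, 646 and 592 CPM in siNONO. The siNONO values lay wholly below the siCtrl values for all 3, as for 69 of the 74 structural genes. This held for 22.1% of all tested genes. The log2 fold changes of the 3 stalk genes were -0.26 ± 0.05, -0.27 ± 0.05 and -0.31 ± 0.06 (edgeR adjusted p = 0.00161, 0.00181 and 0.00245).

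Among small-subunit genes Rps23, a protein of the decoding centre, had the log2 fold change nearest to 0, -0.18 ± 0.06. The siCtrl values of Rps23 were 1298, 1064 and 1132 CPM and its siNONO values 1012, 1067 and 999 CPM, so that siNONO replicate 2 just overlapped siCtrl replicate 2. It passed (0.0359), but not without siCtrl replicate 1, siCtrl replicate 3, siNONO replicate 1 or siNONO replicate 3, nor with total library size, with a gene length correction or on FPKM. Rps3, which lines the mRNA entry channel, had -0.32 ± 0.06, and Rps2 -0.26 ± 0.05. Rps27a, whose protein is made as a fusion with ubiquitin, had -0.28 ± 0.05. These 4 small-subunit genes were chosen after their values were seen. Of the 4 structural genes on the X chromosome, Rpl10, Rpl36a, Rpl39 and Rps4x, all were lowered. So were 71 of all 74 structural genes, against 15.9% of all tested genes.

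Large-subunit genes spread more widely. Rpl35al1, the gene now called Rpl35a, had the largest fall among the structural genes, at 274, 207 and 215 CPM in siCtrl, against 142, 145 and 131 CPM in siNONO. All siNONO values lay below all siCtrl values, siCtrl replicate 1 being the highest. The level was 60.2% of control, a log2 fold change of -0.73 ± 0.08 (adjusted p = 1.57e-05). Rpl27a followed, at 1689, 1443 and 1529 CPM in siCtrl, against 1092, 1198 and 1100 CPM in siNONO, a log2 fold change of -0.46 ± 0.06 (adjusted p = 3.94e-05) and 72.7% of control. Rpl13a, a large-subunit protein also known for silencing of inflammatory mRNAs when released from the ribosome, was at 2719, 2407 and 2448 CPM in siCtrl, against 1965, 2034 and 1791 CPM in siNONO, a log2 fold change of -0.39 ± 0.06 (adjusted p = 0.000156). In each of the 3, which are named for their large falls, the siNONO values lay wholly below the siCtrl values. This held for 69 of the 74 structural genes and for 22.1% of all tested genes.

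At the other end stood Rpl6, Rpl11 and Rpl13, the structural genes that did not pass. Rpl6, a protein of the large-subunit surface, was at 1246, 1131 and 1178 CPM in siCtrl, against 1248, 1283 and 1261 CPM in siNONO. Its siNONO values lay above the highest siCtrl value, by little in replicate 1, with a log2 fold change of 0.09 ± 0.04 (adjusted p = 0.130). It was raised with total library size (0.14; adjusted p = 0.00969), with a gene length correction (0.14; 0.00153) and without siCtrl replicate 1 (0.13; 0.0238). Rpl11, which with Rpl5 and 5S rRNA can bind and inhibit MDM2, was at 1002, 811 and 886 CPM in siCtrl, against 812, 885 and 795 CPM in siNONO. The groups overlapped, and the log2 fold change was -0.12 ± 0.07 (adjusted p = 0.203). Its partner Rpl5, looked up after its values were seen, was lowered, with -0.25 ± 0.05 (adjusted p = 0.00121). The difference between Rpl5 and Rpl11 was not tested. Rpl13 was at 1539, 1357 and 1428 CPM in siCtrl, against 1302, 1386 and 1252 CPM in siNONO, also with overlapping groups, a log2 fold change of -0.13 ± 0.05 (adjusted p = 0.0691). Without siCtrl replicate 2 both Rpl11 (adjusted p = 0.0392) and Rpl13 (0.0308) were lowered, and Rpl13 also without siNONO replicate 2 (0.0291) and with the DESeq2 Wald test (0.0462). Both were lowered with no filter on low counts (0.0499 and 0.0132).

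To ask which genes departed from the family itself, the counts were refitted relative to the summed counts of the 99 genes. On this scale the median of all tested genes is shifted by 0.27, and 50.0% of all tested genes were called higher and 2.80% lower (52.8% in either direction). The adjustment ran over all tested genes, so with 52.8% of them called the adjusted p-values are lenient for the members taken alone. Among the 89 members 4 were lower and 7 higher, and 78 were not called. Of these 11, 5 were called in every alternative of this fit: Rpl35al1 (-0.46 ± 0.07; edgeR adjusted p = 0.000148) and Rpl27a (-0.19 ± 0.04; 0.00280) below the family, and Rpl6 (0.36 ± 0.05; 5.27e-05), Rpl36al (0.24 ± 0.06; 0.00438) and Rpl7l1 (0.27 ± 0.07; 0.00675) above it. The share of Rpl6 in the family, as log2 minus its siCtrl mean, was -0.04, 0.02 and 0.02 in siCtrl, against 0.36, 0.31 and 0.41 in siNONO. The same values for Rpl27a were 0.01, -0.02 and 0.01 in siCtrl, against -0.23, -0.18 and -0.18 in siNONO. The groups were apart for both genes.

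The other 6 calls each ended in at least 1 alternative of this fit, and most of them in several. Rpl13a (-0.12 ± 0.04; 0.0261) and the copy Rps18l1 (-0.24 ± 0.09; 0.0304) were lower, and Rpl11 (0.15 ± 0.05; 0.0183), Rpl13 (0.13 ± 0.04; 0.0199), Rps4y2 (0.22 ± 0.09; 0.0448) and Rpl10l (0.36 ± 0.10; 0.0110) higher. Rpl13a lost its call without each library except siCtrl replicate 1 (adjusted p up to 0.131), and Rps4y2 without each of the 6 (up to 0.131). Rpl11 (up to 0.0682) lost it without siCtrl replicate 2 and without each siNONO library, and Rpl13 (up to 0.0894) without each siNONO library. Rps18l1 kept its call only without siCtrl replicate 1 and without siNONO replicate 2 (otherwise up to 0.113), and Rpl10l lost it without siNONO replicate 3 (0.0607). Leaving out a library gave 2 to 5 members lower and 3 to 8 higher.

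Among paralogs and copies, whose log2 fold changes ran from -1.0 to 0.11, 6 of the 15 tested were lowered and 0 raised (median -0.27), against 15.9% and 16.2% of all tested genes. Lowered were Rpl37 of chromosome 10, Rps18l1, Rps10l1, Rpl22l1, Rps12l2 and Rps15al4. Rpl37 was at 9.49, 9.78 and 9.66 CPM in siCtrl, against 6.71, 6.98 and 6.38 CPM in siNONO (-0.53 ± 0.08; edgeR adjusted p = 0.000295). Rps18l1 was at 20.2, 18.1 and 18.0 CPM in siCtrl, against 12.9, 14.3 and 12.3 CPM in siNONO (-0.51 ± 0.08; 0.000181). Both had groups that did not overlap, siNONO being lower, as for 22.1% of all tested genes. Rps12l2 (adjusted p = 0.0477) and Rps15al4 (0.0478) lay at the threshold. Rps12l2 lost its call without each of the 6 libraries, and Rps15al4 without siCtrl replicate 2, siCtrl replicate 3, siNONO replicate 1 or siNONO replicate 3.

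Copies that did not pass at low levels were Rpl30l1, Rps12l3, Rpl39l and Rpl31l4. Rpl30l1 was at 0.893, 0.457 and 0.463 CPM in siCtrl, against 0.230, 0.120 and 0.527 CPM in siNONO (-1.0 ± 0.46; adjusted p = 0.113), and was lowered without siNONO replicate 3 (-1.76; 0.0211). Rps12l3 was at 1.08, 1.34 and 0.771 CPM in siCtrl, against 1.25, 1.29 and 0.469 CPM in siNONO (-0.08 ± 0.34; 0.881). Both had low levels and overlapping groups. Rpl31l4 was at 5.81, 5.42 and 5.52 CPM in siCtrl, against 4.28, 4.90 and 4.69 CPM in siNONO, with no overlap but a log2 fold change that did not pass (-0.27 ± 0.11; 0.0719). On log2(FPKM + 1) it was lowered (-0.20; adjusted p = 0.0178 by limma). Among the untested genes was Rpl3l, the paralog of Rpl3 known from striated muscle, with 5, 2 and 2 counts in siCtrl, against 0, 0 and 1 in siNONO. A library with 0 counts could still hold up to 3, or 0.0899 to 0.108 CPM depending on the library, from counting error only.

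Paralogs were then set against the gene they resemble, as the ratio of their counts in each library. Of 9 pairs listed, 7 had at least 10 counts for both genes in every library, and p-values were adjusted over these 7. Relative to the family, the median of all tested genes was 0.27, and 50.0% of them were called higher. Any unchanged gene set against a lowered partner would thus shift by about that much, so such a shift is not particular to paralogs. How many of all tested genes would show no overlap in such a ratio was not tested. Rpl36al, a copy of the gene for L36a, was at 194, 171 and 171 CPM in siCtrl, against 169, 185 and 169.9 CPM in siNONO. Rpl36a was at 546, 462 and 483 CPM in siCtrl, against 400.2, 439 and 383 CPM in siNONO. Rpl36a was lowered, with no overlap (-0.29 ± 0.06; edgeR adjusted p = 0.00310), and Rpl36al did not pass (-0.03 ± 0.05; 0.731). Per length, Rpl36al stood at 32.2%, 33.7% and 32.2% of Rpl36a in siCtrl, against 38.5%, 38.4% and 40.4% in siNONO. The log2 ratio of counts differed by 0.26 without overlap (two-sided exact permutation test, p = 0.1, adjusted 0.14).

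Rpl7l1, a protein of large-subunit assembly related to L7, was at 135, 136 and 127 CPM in siCtrl, against 133, 132 and 135 CPM in siNONO. Rpl7 was at 1781, 1579 and 1619 CPM in siCtrl, against 1396, 1456 and 1360 CPM in siNONO. Rpl7l1 had 0.01 ± 0.04 (adjusted p = 0.940) and Rpl7 was lowered (-0.24 ± 0.05; 0.00227), so that the log2 ratio differed by 0.25. Rpl10l, known as the testis counterpart of the X-linked Rpl10, was at 12.7, 12.97 and 11.9 CPM in siCtrl, against 13.5, 12.7 and 13.8 CPM in siNONO. Rpl10 was at 1905, 1718 and 1722 CPM in siCtrl, against 1503, 1602 and 1493 CPM in siNONO and was lowered (-0.22 ± 0.05; 0.00439), although not with log2(FPKM + 1) (adjusted p = 0.0512), and Rpl10l did not pass (0.09 ± 0.07; 0.357). The log2 ratio differed by 0.31. Neither ratio overlapped between groups (exact permutation p = 0.1, adjusted 0.14, for both).

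Rps27l, a paralog of Rps27 known as a p53 target, was at 201, 165 and 160.4 CPM in siCtrl, against 154, 165 and 158 CPM in siNONO. Rps27 was at 828, 703 and 719.6 CPM in siCtrl, against 584, 671 and 537 CPM in siNONO. Rps27 was lowered (-0.33 ± 0.07; 0.00409) and Rps27l did not pass (-0.14 ± 0.07; 0.130), except without siCtrl replicate 3 (-0.21; 0.0434) and with no filter on low counts (0.0181). The log2 ratio differed by 0.19 without overlap (exact permutation p = 0.1, adjusted 0.14), and by 0.12 without siNONO replicate 3. Rps4x, the X-linked gene for S4, was at 1750, 1593 and 1634 CPM in siCtrl, against 1358, 1388 and 1328 CPM in siNONO. Rps4y2, which the files place on chromosome 4, was at 19.3, 18.1 and 19.2 CPM in siCtrl, against 18.1, 19.0 and 17.8 CPM in siNONO. Rps4x was lowered (-0.29 ± 0.05; 0.000260) and Rps4y2 was not called (-0.05 ± 0.06; 0.599), and the log2 ratio of Rps4x to Rps4y2 changed by -0.24, again without overlap (exact permutation p = 0.1, adjusted 0.14).

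For the remaining 2 pairs the ratios overlapped. Rpl22 binds RNA and is known to restrain its paralog Rpl22l1. Rpl22l1 was at 153, 119 and 124 CPM in siCtrl, against 110.4, 106 and 104 CPM in siNONO. Rpl22 was at 448, 384 and 421 CPM in siCtrl, against 345, 378 and 340.5 CPM in siNONO. Both were lowered, with -0.30 ± 0.07 and -0.24 ± 0.06 (adjusted p = 0.00571 and 0.00608), and the log2 ratio differed by -0.06 (exact permutation p = 0.5, adjusted 0.5). Rpl39l, known from testis and cancer cells, was at 1.71, 1.58 and 0.926 CPM in siCtrl, against 1.51, 1.35 and 1.64 CPM in siNONO (0.11 ± 0.23; 0.747). Its partner Rpl39, on the X chromosome, was at 666, 585 and 601 CPM in siCtrl, against 482, 522 and 474 CPM in siNONO and was lowered (-0.33 ± 0.05; 0.000397). Their log2 ratio differed by 0.46 (exact permutation p = 0.2, adjusted 0.233), with siCtrl replicate 3 far below the other control libraries. Without that library the difference was 0.21.

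**Figure D4:**
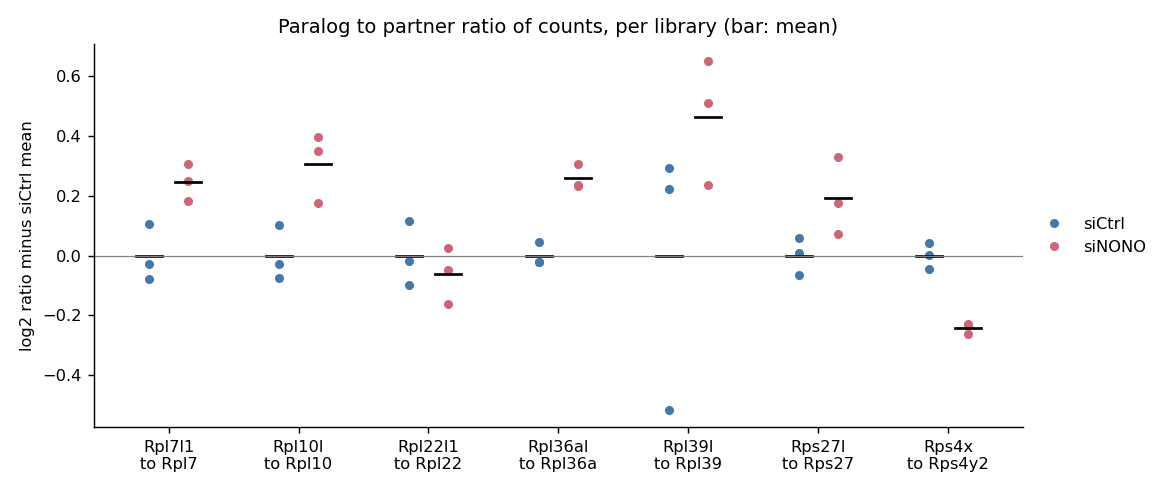
Log2 ratio of the counts of a paralog to those of its partner, minus the siCtrl mean of that pair (y axis), for 7 pairs (x axis); points are libraries and bars are means of 3. The groups are apart for 5 pairs and overlap for Rpl22l1 to Rpl22 and Rpl39l to Rpl39. Relative to the family, 50.0% of all tested genes were called higher. The median of all tested genes on that scale was 0.27. An unchanged paralog would thus shift by about that much, with the sign reversed for Rps4x to Rps4y2.

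Genes of the ribosome and of translation that the symbol pattern does not reach were mostly lowered as well. The 4 listed genes for proteins of the ribosome with other names, Rpsa and Rack1 among them, were all lowered (median -0.28). Rpsa, the laminin-receptor-named protein of the small subunit, went from 2929 ± 180 to 2334 ± 115 CPM (SD, n = 3 each; -0.33 ± 0.05; edgeR adjusted p = 0.000301). The scaffold protein gene Rack1 had -0.30 ± 0.05 (0.000221). Of 18 tested genes on a list of other TOP mRNAs, most of them for translation proteins, 12 were lowered and 1 was raised. Among all tested genes 15.9% were lowered and 16.2% raised. The median log2 fold change was -0.16. The largest falls were those of Tpt1, the translationally controlled tumour protein (-0.32 ± 0.05; adjusted p = 0.000142), and the elongation factor subunit Eef1b2 (-0.29 ± 0.05; 0.000390). The RNA-binding protein gene Hnrnpa1 rose (0.30 ± 0.04; 6.4e-05), and 3 were raised with total library size or FPKM. Of the snoRNA host RNAs, which also start with a TOP tract, Gas5 was the 1 matched of 11 listed, and it fell from 200.3 ± 15.9 to 146 ± 7.80 CPM (-0.46 ± 0.06; 4.0e-05).

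Among the factors that assemble ribosomes more genes were raised than lowered. Of 75 tested ribosome biogenesis genes 20 were raised and 3 lowered (median 0.09), where 16.2% of all tested genes were raised and 15.9% lowered. Raised most were Gnl3l, a nucleolar GTPase, from 3.25 ± 0.588 to 6.01 ± 1.02 CPM (0.88 ± 0.16; edgeR adjusted p = 0.000690), and Imp3, a U3 snoRNP protein (0.31 ± 0.07; 0.00394). Lowered most were Nop10, of the H/ACA snoRNPs that guide pseudouridylation (-0.41 ± 0.04; 1.0e-05), and Pno1, a factor of small-subunit maturation (-0.24 ± 0.05; 0.00182). The raised count was 31 with total library size, 12 without siNONO replicate 1 and 13 without siNONO replicate 3.

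Of 22 genes of RNA polymerase I and rRNA transcription 4 were raised and 1 was lowered (median 0.06), a raised share near the 16.2% of all tested genes. Polr2e, a subunit shared by the nuclear RNA polymerases, rose by 0.40 ± 0.05 (edgeR adjusted p = 5.2e-05), and Polr1d, shared by polymerases I and III, had -0.26 ± 0.05 (0.000897). The terminator protein gene Ttf1 rose by 0.27 ± 0.09 (0.0292), a call that ended without siCtrl replicate 3, siNONO replicate 1 or siNONO replicate 3 (adjusted p up to 0.161). The raised count was 7 with total library size and 2 without siCtrl replicate 3 or siNONO replicate 3. Of 13 chaperones and import receptors of ribosomal proteins, the import receptor genes Ipo7 (-0.35 ± 0.05; 5.1e-05) and Tnpo1 (-0.25 ± 0.04; 0.000807) were lowered and 0 were raised (median 0.02; 4 raised with total library size). The lowered share is near the 15.9% of all tested genes.

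Genes of mTORC1 signalling, the S6 kinases and the LARP family included 6 raised, 7 lowered and 9 not called of 22 (median 0.03), against 16.2% raised and 15.9% lowered among all tested genes. Deptor, an inhibitor of mTOR, had -0.44 ± 0.07 (edgeR adjusted p = 0.000172) and Larp1b -0.36 ± 0.05 (7.7e-05). Larp4 rose by 0.28 ± 0.06 (0.00463) and Tsc1, a subunit of the complex that restrains mTORC1, by 0.24 ± 0.06 (0.00908), a call that ended without siNONO replicate 1 (0.0524) or siNONO replicate 3 (0.0532). Tsc2, of the same complex and looked up after its values were seen, was lowered (-0.24 ± 0.05; 0.00390). Larp1 itself, looked up after its values were seen, had 0.03 ± 0.04 (0.561). The raised count was 3 without siCtrl replicate 3 or siNONO replicate 1, and the lowered count 4 with log2(FPKM + 1). Of 6 genes of the 5S RNP and p53 branch, Cdkn1a (-0.18 ± 0.05; edgeR adjusted p = 0.00995) and Mdm2 (-0.14 ± 0.04; 0.0208) were lowered and 0 raised, against 1 and 1 with total library size. The call of Cdkn1a ended without siNONO replicate 1 (0.0584) and that of Mdm2 with total library size (0.149), on FPKM (up to 0.145) and without siCtrl replicates 2 or 3 or siNONO replicate 3 (up to 0.0744).

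**Figure D5:**
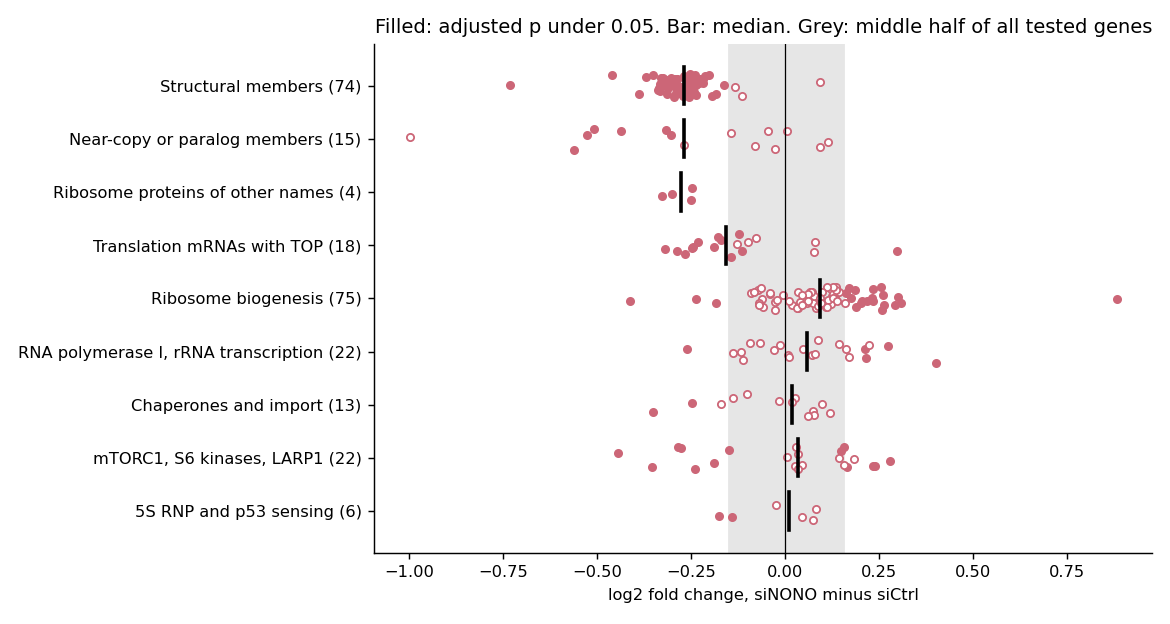
Log2 fold change (x axis, siNONO minus siCtrl) of each tested gene in the structural, copy and related gene groups (rows, number tested in brackets); filled points passed the test, bars are medians and the grey band spans the quartiles of all tested genes. The structural genes sit left of the band around -0.27, and the ribosome biogenesis genes lie mostly inside it or to its right.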

How the data were processed

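RNA sequencing of 3 siCtrl and 3 siNONO libraries was used, grouped by their titles. The deposited counts are whole numbers of reads per gene, and the deposited FPKM values are the authors' values scaled to gene length and library size. HISAT2, edgeR and the build mRatBN7.2 are named in the submitters' processing notes, with no version, and the sources used here name no strand setting or rule for multi-mapped reads. No count column was left unmapped (0 columns of other samples). Members and lists were chosen with earlier results of these data known. Genes passing filterByExpr, 14412, were tested with edgeR 4.0.16 (R 4.3.3; quasi-likelihood, TMM factors, Benjamini-Hochberg adjustment over all of them, threshold 0.05). The biological coefficient of variation was 4.82%, with 4 residual degrees of freedom. The fit relative to the family used the summed counts of the 99 genes as library size. Shares and paralog ratios were compared by exact permutation. The fit was tested on 10 simulated data sets, in which 6.71% of the calls were false. At a shift of -0.25 for all members, 64.5% of them were called. Genes were simulated independently of each other, whereas the members here moved together between replicates. DESeq2 1.42.0 and limma 3.58.1 were alternatives, beside other scalings, filters, a gene length correction and leaving out each library.

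Values per library are given for the 5 members with the largest fall and the 5 with the highest log2 fold change at a mean of at least 5 CPM, members not called, paralog pairs, stalk genes and the 3 of highest FPKM. From each related list up to 2 genes with the largest rise and 2 with the largest fall past the threshold are named.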

Additional observations from a re-analysis of the deposited data

How the results depend on the processing

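The lowered count of the 89 members was 77 and stayed between 65 and 79 in the alternatives. The raised count of 0 became 1 with total library size, with a gene length correction, with that correction and a replicate block, with log2(FPKM + 1), with log2(FPKM + 0.1) and with log2(FPKM + 1) at a minimum of 1 FPKM in 3 libraries, and ranged from 0 to 1 leaving out a library. The median of -0.27 was -0.18 with a gene length correction, also with a replicate block, and -0.31 to -0.21 leaving out a library. The related lists' raised count of 31 was 54 with total library size, 48 with log2(FPKM + 1), 53 with the FPKM minimum, 16 at a threshold of 0.01 and 19 to 35 leaving out a library. Replicate numbers did not pair the libraries (same-number correlations -0.05, -0.09 and -0.01). A replicate block gave 73 lowered and 0 raised, and relative to the family 2 lower and 4 higher in place of 4 and 7, where leaving out a library gave 2 to 5 and 3 to 8. The block also ended the calls of Ttf1 (adjusted p = 0.0573), Mdm2 (0.0683) and Rps23, and with the length correction that of Rpl22 (-0.11; 0.0743). The difference in share was -2.41 percentage points as a share of summed FPKM and -1.55 to -1.03 leaving out a library. The causes were not tested. Pyrimidine runs at start sites were not run, since no sequence was used here. With 3 libraries a group, exact tests cannot go below 0.1.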

Other observations

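The count table also lists 259 protein-coding genes under LOC or RGD names that are described as ribosomal proteins, which the symbol pattern does not reach. They were looked up after the values of the named genes were seen. Together they held 0.211% to 0.237% of counts in siCtrl and 0.179% to 0.195% in siNONO. Of the 113 tested, 38 were lowered and 0 raised by edgeR, with a median log2 fold change of -0.30, where 15.9% of all tested genes were lowered. Among the 38 is LOC120093056, the gene that RefSeq now names Rpl37, which at 885 CPM in siCtrl holds much of the share above. LOC100361933, described as S12, came next at 421 CPM in siCtrl and was also lowered.

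Rpl35al1 and Rpl27a had the largest falls among the structural genes, and copies of L35a and L27a were therefore looked up. Of 6 tested copies of L35a, on 4 chromosomes, 4 were lowered, and the log2 fold changes of the 6 ran from -1.02 to -0.46 (median -0.84). Of 3 tested copies of L27a 2 were lowered, and the 3 values ran from -0.79 to -0.51 (median -0.63). Values below 0 were not particular to them, since 104 of the 113 tested LOC and RGD genes lay below 0. Of these 113, 38 were lowered, with a median of -0.30 and a lower quartile of -0.50. Among all tested genes 15.9% were lowered. No copy of L13a or L6 was tested (0 of each). Shared reads between a gene and its copies were not tested.

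The gene that RefSeq now names Rpl37, on chromosome 2, stands in the count table as LOC120093056. It was at 885 ± 82.3 CPM in siCtrl and 741 ± 46.1 CPM in siNONO (SD, n = 3 each). It was lowered by edgeR's test (-0.26 ± 0.06 on the log2 scale; adjusted p = 0.00656), near the median of the structural genes.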
